A study of Homo sapiens with 346 samples.

Results

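Genes of the Wnt and beta-catenin pathway were followed together with MYC in single live and methanol-fixed cells of both cell lines. The rule named 10 genes and took each one's row wherever a gene table listed it: CTNNB1, the gene of beta-catenin itself, the transcription factors TCF7L2 and TCF7, the target genes AXIN2, NKD1, RNF43, LGR5, ASCL2 and SP5, and MYC. Of these, 9 were listed in at least 1 table and 7 in both. The HCT-116 table held 8 of them among 28806 genes, without ASCL2, and the HepG2 table held 8 among 29551 genes, without SP5. LGR5, a receptor for R-spondins, was listed in neither table. Neither table held a gene at 0 in all of its cells, so no value is given for a gene without a row.

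In canonical Wnt signalling, Wnt ligands bind Frizzled and LRP receptors, and the destruction complex built on AXIN and APC then stops marking beta-catenin for degradation. Beta-catenin enters the nucleus, where it works with factors of the TCF/LEF family on target genes. Several targets feed back on the pathway: AXIN2 rebuilds the destruction complex, NKD1 acts on Dishevelled, and RNF43 is a ubiquitin ligase that removes Frizzled from the cell surface. ASCL2, LGR5 and SP5 are further targets known from intestinal stem cells and from development, and MYC is a target best known in colorectal cancer, where it drives growth and ribosome production.

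The libraries were made with Smart-seq2, which copies polyadenylated RNA of 1 cell into full-length cDNA. HCT-116, a human colorectal carcinoma line and a beta-catenin mutant, gave 91 live and 92 fixed cells. The line labelled HepG2, known as a human hepatoma line, gave 68 live and 83 fixed cells. Both were grown in DMEM with fetal bovine serum and penicillin-streptomycin; fixed cells lay in 80% methanol in a deep freezer for 1 week, while live cells went into libraries directly, so that storage, fixation and the making of the library cannot be told apart. The labels name no culture, and the methods give a pair of HepG2 experiments that the labels do not separate. Each line and treatment therefore counts as 1 sample, cells are no replicates, every SD below is a spread over cells, and no test was run.

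The depth differed little between lines and more between treatments. Median total reads per cell were 2.5 M for live and 1.8 M for fixed HCT-116, and 2.4 M and 2 M for the HepG2-labelled cells, over a range of 0.2 to 5.3 M. The median number of genes with a TPM (transcript abundance per length, scaled to 1 sum in each cell) above 0 was 12031 and 10359 in HCT-116, and 13887 and 12293 in the HepG2-labelled line, live before fixed. Ribosomal RNA took a median of 24.6% of the TPM in live HCT-116 cells, 7.60% in fixed ones, and 5.72% and 2.39% in live and fixed HepG2-labelled cells. In the HepG2 table, 1 live and 1 fixed column hold equal values, and 6 fixed columns are very much alike (Pearson r over 0.95). Of 17 hepatocyte markers, 0 passed 1 TPM in at least 50% of the HepG2-labelled cells, where the summed level of the list had a median of 0.0955 TPM (live) and 0 TPM (fixed); ALB and AFP were not listed. Of 11 markers of luminal breast epithelium, 10 passed, among them ESR1 and GATA3, against 3 in HCT-116. Of 13 intestinal markers, 4 passed in HCT-116 (CDX2, EPCAM, KRT8 and KRT18) and all of these but CDX2 in the HepG2-labelled cells. The name of the line follows the labels, and what these cells are was not tested.

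Reference sequence was read for the target genes whose promoters the RefSeq table for GRCh38.p14 holds, to show where TCF/LEF factors could bind. That table matched 5 of the 10 genes (CTNNB1, TCF7L2, TCF7, RNF43 and SP5). The 250 bases before each start were searched on both strands for the TCF/LEF core motif, CTTTGAA or CTTTGAT. SP5, a zinc finger factor, held 3 matches, which begin at positions -148, -109 and -84 from its start; the other 4 genes held 0. Over all 35116 promoters of that table, 5.94% of windows of this length held at least 1. The 250 bases of SP5 (chr2:170715087-170715336, + strand), TCF7 (chr5:134115363-134115612, + strand) and RNF43 (chr17:58417535-58417784, - strand) follow, 5′ to 3′ on the strand of the gene, with the matches in capitals. They are shown because these genes are the targets of beta-catenin in that table, and TCF7 and RNF43 hold no capitals because the motif is not in their windows.
SP5: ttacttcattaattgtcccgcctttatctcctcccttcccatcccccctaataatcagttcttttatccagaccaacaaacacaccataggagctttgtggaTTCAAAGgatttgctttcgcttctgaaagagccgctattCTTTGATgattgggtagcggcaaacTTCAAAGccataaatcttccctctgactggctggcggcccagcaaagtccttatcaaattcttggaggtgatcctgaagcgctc
TCF7: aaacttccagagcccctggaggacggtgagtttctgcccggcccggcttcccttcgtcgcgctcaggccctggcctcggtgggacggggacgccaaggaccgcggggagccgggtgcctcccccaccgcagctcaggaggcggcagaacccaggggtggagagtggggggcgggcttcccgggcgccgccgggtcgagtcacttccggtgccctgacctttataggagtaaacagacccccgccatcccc
RNF43: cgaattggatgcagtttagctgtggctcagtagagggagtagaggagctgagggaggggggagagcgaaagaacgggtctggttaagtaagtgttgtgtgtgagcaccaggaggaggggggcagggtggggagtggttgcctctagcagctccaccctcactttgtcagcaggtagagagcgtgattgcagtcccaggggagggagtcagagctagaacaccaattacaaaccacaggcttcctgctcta
A match is a run of letters and not a measured binding site, and these data hold no reading of binding. The GC content of the windows was 45.6% for SP5, 70.8% for TCF7 and 56% for RNF43, beside a median of 58% over all promoters.

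CTNNB1 was found in every cell of all groups. In live HCT-116 cells its lowest, median and highest levels were 41.7, 107.6 and 229 TPM, and in fixed ones 30.8, 117.2 and 274 TPM. Live HepG2-labelled cells ran from 9.48 through a median of 47.98 to 93.6 TPM, and fixed ones from 7.42 through 56.5 to 109 TPM. The ranges of the groups overlapped, with the HepG2-labelled cells lower as a whole. The live HCT-116 cells had a mean of 111.1 ± 33.4 TPM and the fixed ones of 129.2 ± 47.99 TPM, against 47.2 ± 18.2 and 57.8 ± 19.3 TPM in live and fixed cells of the other line. Among the genes followed here CTNNB1 varied least from cell to cell, with a coefficient of variation (SD over mean) of 0.301 to 0.385. Medians of 612 and 609 reads lay behind a value in live and fixed HCT-116 cells, and of 328 and 307 in the other line.

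TCF7L2, the TCF factor that prevails in intestinal epithelium, was present in every HCT-116 cell, at a mean of 27.3 ± 14.97 TPM for live cells and 28.1 ± 14.5 TPM for fixed ones. Live HCT-116 cells ran from 3.93 through a median of 25.8 to 87.4 TPM, and fixed ones from 0.532 through 26.5 to 77.9 TPM. In HepG2-labelled cells the mean was 3.12 ± 2.69 TPM live and 2.97 ± 3.21 TPM fixed, and the median 2.39 and 2.18 TPM, with highest cells of 13.5 and 15.6 TPM. Every HepG2-labelled cell thus lay below the HCT-116 medians, while the ranges overlapped.

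TCF7, known for its part in T cell development and itself a target of the pathway, was far lower. In HCT-116 its mean was 2.80 ± 2.96 TPM for live cells and 1.89 ± 2.51 TPM for fixed ones, with medians of 1.80 and 0.740 TPM and highest cells of 14.6 and 10.7 TPM. In HepG2-labelled cells the mean was 0.336 ± 0.563 TPM live and 0.260 ± 0.480 TPM fixed, with highest cells of 4.10 and 2.74 TPM. The mean of TCF7L2 exceeded that of TCF7 in each group, by 9.74-fold and 14.9-fold in live and fixed HCT-116 cells and by 9.30-fold and 11.4-fold in the other line.

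The feedback genes were low and were missed in many cells. RNF43 had a mean of 2.45 ± 4.41 TPM in live HCT-116 cells, where its median was 0 and its highest cell at 14.9 TPM, and 1.61 ± 4.62 TPM in fixed ones, with a highest cell of 29.01 TPM. In HepG2-labelled cells its mean was 0.763 ± 1.26 TPM live and 1.38 ± 2.46 TPM fixed, and its median 0.195 and 0.451 TPM. The mean of RNF43 over cells above 0 TPM was 5.58 TPM in live HCT-116 and 1.06 TPM in live HepG2-labelled cells, and 4.76 and 2.05 TPM in fixed ones.

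AXIN2, often used as a readout of the pathway, was at 0 in most cells of each group. Its means were 0.422 ± 1.18 TPM (live) and 0.130 ± 0.562 TPM (fixed) in HCT-116, and 0.281 ± 0.864 and 0.445 ± 1.62 TPM in live and fixed HepG2-labelled cells. The highest cells reached 6.96, 4.12, 5.16 and 11.5 TPM in that order. The values rest on 17 of 91, 8 of 92, 11 of 68 and 16 of 83 cells. NKD1 was found more often but at lower levels, with means of 0.143 ± 0.282 TPM (live) and 0.117 ± 0.280 TPM (fixed) in HCT-116, and 0.113 ± 0.123 and 0.0771 ± 0.190 TPM in the other line; about 2 reads lay behind it in a cell that had it. At so few reads a value of 0 marks a gene as not detected in that cell, not as silent.

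ASCL2, a basic helix-loop-helix factor of intestinal stem cells, was listed for the HepG2-labelled line, at a mean of 1.12 ± 1.41 TPM when live and 1.41 ± 1.75 TPM when fixed. Its median was 0.524 and 0.846 TPM and its highest cell 6.34 and 7.47 TPM, with a median of 5 reads in cells that had it in either group. SP5, the gene with the 3 TCF/LEF core matches, was above 0 in 2 of 91 live and 1 of 92 fixed HCT-116 cells. The live cells had 1 read each at most, and the fixed cell 13 reads and 4.10 TPM.

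MYC was the most abundant of these genes in HCT-116. Its lowest, median and highest cells were at 1.74, 188.4 and 1053 TPM when live and at 2.997, 201 and 873 TPM when fixed. In HepG2-labelled cells they were at 1.96, 44.8 and 207 TPM when live and at 0, 24.5 and 132.4 TPM when fixed. HCT-116 had means of 239 ± 191.7 TPM (live) and 253.5 ± 190.2 TPM (fixed), against 56.4 ± 43.2 and 34.1 ± 30.997 TPM in the other line. MYC spread far more between cells of 1 group than CTNNB1 did, with a coefficient of variation of 0.750 to 0.910, and a median of 750 (live) and 644 (fixed) reads in HCT-116 and of 216 and 89 in HepG2-labelled cells stood behind it. The mean of MYC was 2.15 and 1.96 times that of CTNNB1 in live and fixed HCT-116 cells, 1.19 times in live and 0.589 times in fixed HepG2-labelled cells.

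By mean TPM, live HCT-116 cells thus ordered the genes as MYC, CTNNB1, TCF7L2, TCF7, RNF43, AXIN2, NKD1 and SP5, and the fixed cells gave the same order. MYC ranked 354 of 28806 genes in live cells and CTNNB1 783, while AXIN2 ranked 14245. MYC and CTNNB1, and the neighbours from TCF7 to NKD1, differed by less than the SD over cells of the higher one. Live HepG2-labelled cells ordered them as MYC, CTNNB1, TCF7L2, ASCL2, RNF43, TCF7, AXIN2 and NKD1; in fixed cells CTNNB1 stood above MYC and AXIN2 above TCF7, differences that were smaller than the SD over cells of the higher gene for AXIN2 but not for CTNNB1.

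**Figure D1:**
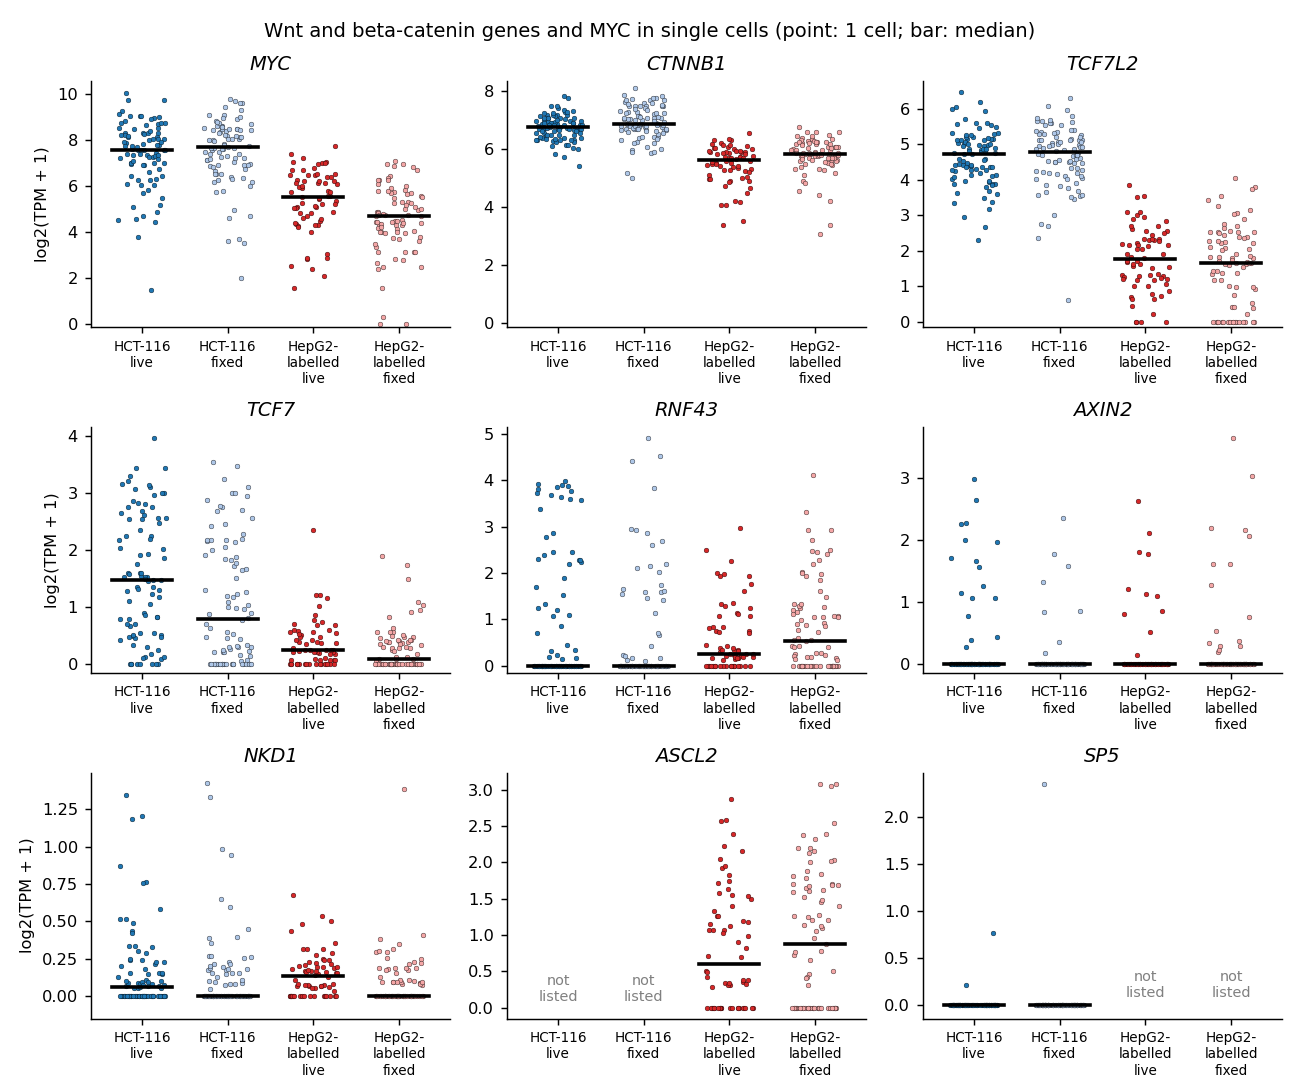
Level of each gene in every cell, as log2(TPM + 1), in live and fixed cells of HCT-116 and of the HepG2-labelled line; a point is 1 cell and the bar the median, and panels have their own vertical scales. MYC, CTNNB1 and TCF7L2 lie lower in the HepG2-labelled cells, and AXIN2 and SP5 are at 0 in most cells.

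Shares of cells with a TPM above 0 are given with exact Clopper-Pearson 95% intervals, which take in counting error and nothing else. In live and fixed cells, TCF7L2 was present in 94.1% (85.6 to 98.4) and 78.3% (67.9 to 86.6) of the HepG2-labelled cells. TCF7 was present in 91.2% (83.4 to 96.1) and 76.1% (66.1 to 84.4) of HCT-116 cells, and in 73.5% (61.4 to 83.5) and 51.8% (40.6 to 62.9) of the HepG2-labelled ones. NKD1 was present in 53.8% (43.1 to 64.4) and 40.2% (30.1 to 50.96) of HCT-116 cells, and in 72.1% (59.9 to 82.3) and 43.4% (32.5 to 54.7) of the others. For NKD1 in the HepG2-labelled line the intervals of live and fixed cells did not overlap, and for TCF7 and TCF7L2 they did. How many of all genes would show the same was not counted, and fixed cells had fewer genes detected in general. The gap is therefore not read as particular to NKD1.

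RNF43 was present in 43.96% (33.6 to 54.8) of live and 33.7% (24.2 to 44.3) of fixed HCT-116 cells, and in 72.1% (59.9 to 82.3) and 67.5% (56.3 to 77.4) of the HepG2-labelled ones at TPM above 0. At TPM above 1 it was present in 34.1% (24.5 to 44.7) of live and 23.9% (15.6 to 33.9) of fixed HCT-116 cells, and in 25% (15.3 to 36.98) and 37.3% (26.97 to 48.7) of the HepG2-labelled ones, so that the line with the higher share among live cells depends on the threshold. AXIN2 was present in 18.7% (11.3 to 28.2), 8.70% (3.83 to 16.4), 16.2% (8.36 to 27.1) and 19.3% (11.4 to 29.4) of the cells of the 4 groups, with intervals that all overlapped. ASCL2 was present in 67.6% (55.2 to 78.5) and 61.4% (50.1 to 71.9) of the HepG2-labelled cells. MYC was missed in 2 of 83 fixed HepG2-labelled cells and in no other cell.

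Because depth differed between the treatments, the shares were also taken at matched depth. Fixed cells had fewer genes detected also where cells were paired on total reads (medians of 10640 against 11778 genes in 53 pairs of HCT-116 cells, and of 12453 against 13782 in 38 pairs of HepG2-labelled cells). In those pairs TCF7 was present in 90.6% of live and 83.02% of fixed HCT-116 cells and in 71.1% and 50% of the HepG2-labelled ones, and TCF7L2 in 97.4% and 76.3% of the latter. NKD1 was present in 47.2% of both groups of HCT-116 cells, and in 68.4% and 50% of HepG2-labelled cells. Cells were also thinned to 500000 reads each, with 3 fixed HCT-116 cells left out. NKD1 would then be seen in 20.1% of live and 16.05% of fixed HCT-116 cells, and in 28.6% and 15.7% of the HepG2-labelled ones. Thinning can only lower a share, so these values serve to set the groups side by side at a common depth.

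**Figure D2:**
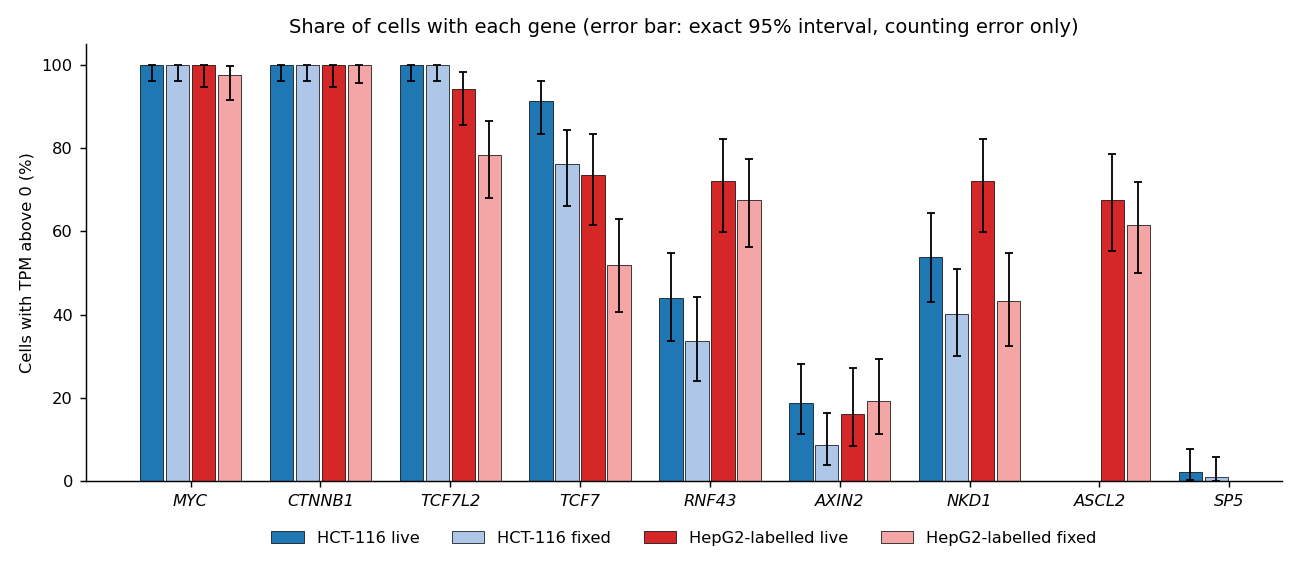
Percent of cells with a TPM above 0 for each gene in live and fixed cells of both lines; bars are shares and error bars exact 95% intervals for counting error, and a missing bar is a gene without a row in that table. MYC and CTNNB1 are in nearly all cells of each group, and SP5 is in 2 live and 1 fixed HCT-116 cell.

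The study asked what fixation does to single-cell profiles, and the first comparison sets fixed against live cells of each line. A gene is called here when its mean TPM over cells differs by at least 2-fold, and the background is every gene above 0 TPM in at least 10% of the cells compared. In HCT-116, 1 of 7 members in that background was called, AXIN2, which was 3.24-fold lower in fixed cells (log2 ratio -1.70), beside 10.2% of 18290 genes called lower and 4.52% called higher. SP5, in 3 cells, was outside the background. The call of AXIN2 rests on 17 live and 8 fixed cells. AXIN2 was above 0 TPM in 18.7% of live and 8.70% of fixed cells, so it passed the 10% filter through the live cells. The mean of log2(TPM + 1) was 0.28 in live cells, so that no 2-fold difference could be reached on that scale. Without the highest cell of each group the ratio was -2.02, and in cells paired on total reads -1.61.

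The other log2 ratios of fixed over live HCT-116 cells were 0.22 for CTNNB1, 0.09 for MYC, 0.04 for TCF7L2, -0.30 for NKD1, -0.57 for TCF7 and -0.61 for RNF43, each under 2-fold and small beside the SD over cells. The median of all genes compared was 0.11, so CTNNB1 lay 0.11 above it and MYC 0.03 below. These signs moved with the scaling. With each cell rescaled by its median ratio the median of all genes was -0.08, and with ribosomal RNA left out -0.20. MYC then came to -0.11 and -0.25, TCF7L2 to -0.15 and -0.27, and CTNNB1 to 0.02 and -0.10. Of all genes called in HCT-116, 30.8% were higher in fixed cells, against 18.4% and 11.4% under these scalings.

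In HepG2-labelled cells 0 of 8 members were called, beside 15.3% of 20222 genes called lower in fixed cells and 6.27% called higher. RNF43 had a log2 ratio of 0.86, AXIN2 of 0.66, ASCL2 of 0.33 and CTNNB1 of 0.29, and MYC of -0.73, NKD1 of -0.55, TCF7 of -0.37 and TCF7L2 of -0.07. The median of all genes was -0.01, and -0.21 and -0.18 under the rescaling and without ribosomal RNA. MYC was at -0.93 and -0.90 there, and RNF43 at 0.46 and 0.68. Of all genes called, 29.1% were higher in fixed cells, against 15.6% and 18.1% under these scalings. In the 38 pairs matched on reads TCF7 was called lower, at -1.46. Without the equal columns, or without the 6 similar fixed ones, 0 members were called as well.

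**Figure D3:**
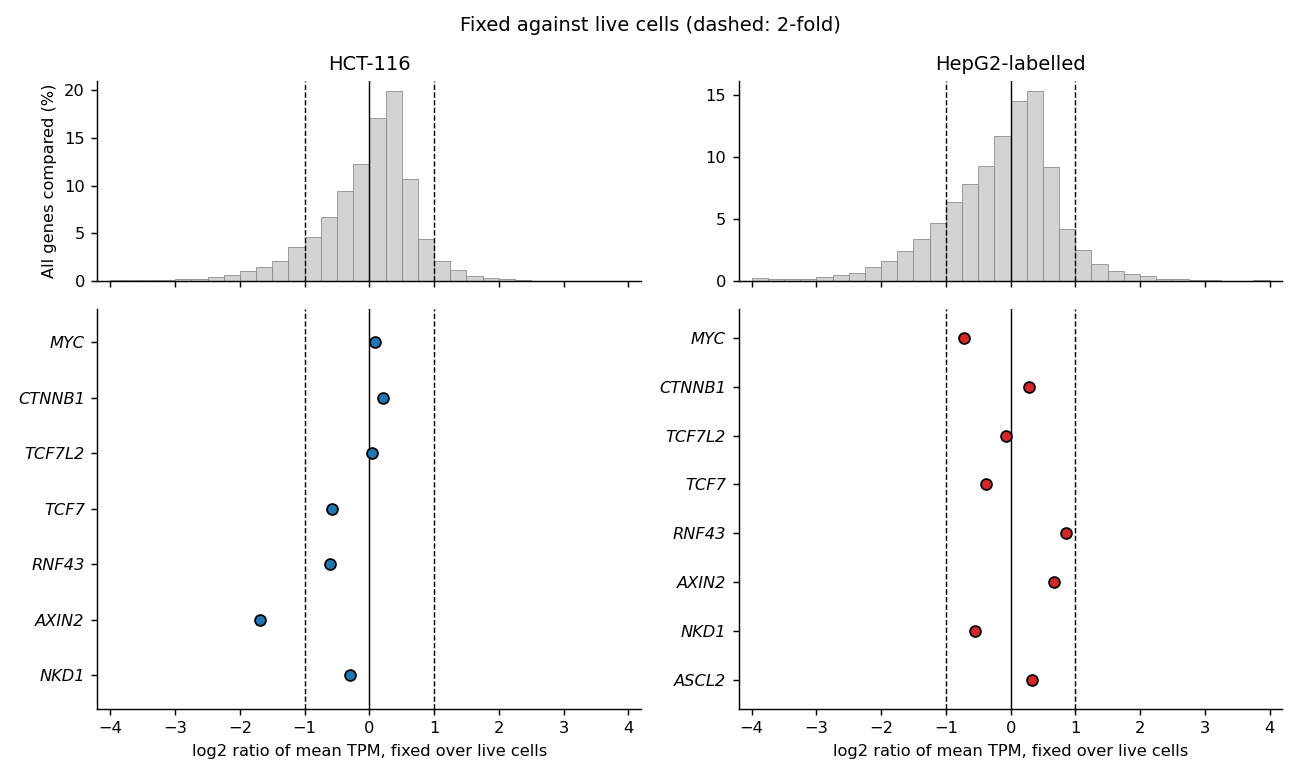
Top, distribution of the log2 ratio of mean TPM of fixed over live cells over all genes compared (values beyond 4 are drawn in the outermost bins); bottom, the same ratio for each member, with dashed lines at 2-fold, for HCT-116 (left) and the HepG2-labelled line (right). AXIN2 in HCT-116 lies at -1.70, the one member past a dashed line.

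Other genes of the pathway came from lists, described by their counts, which are to be read beside the shares of all genes called lower (10.2% in HCT-116, 15.3% in the HepG2-labelled line) and higher (4.52% and 6.27%). Of 15 receptors and Dishevelled genes in the background, 5 were called lower (FZD1, ROR1, ROR2, DVL1 and DVL2) and 0 higher in fixed HCT-116 cells (median log2 ratio -0.27, all genes 0.11), and 1 lower (DVL2) and 1 higher (FZD1) in fixed HepG2-labelled cells (median 0.14, all genes -0.01), or 3 lower and 1 higher under either scaling. DVL2, a Dishevelled protein that relays the receptor signal, was lower in fixed cells of both lines, at 6.69 against 16.9 TPM in HCT-116 and 3.68 against 8.06 TPM in HepG2-labelled cells. Its log2 ratios were -1.34 and -1.13, and stayed between -1.01 and -1.66 under both scalings and in paired cells. FZD6, the most abundant Frizzled, did not pass 2-fold, with 17.3 and 19.6 TPM in HCT-116 and 20.2 and 22.3 TPM in HepG2-labelled cells, live before fixed.

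Among Wnt antagonists, 2 of 7 were called lower (KREMEN2 and NKD2) and 1 higher (NOTUM) in fixed HCT-116 cells, or 3 lower and 0 higher under either scaling, and 2 of 6 lower and 1 higher in fixed HepG2-labelled cells. NOTUM was low in HCT-116, at 0.373 TPM live and 0.815 TPM fixed. KREMEN2, a receptor for the DKK antagonists, was lower after fixation in HCT-116 (log2 ratio -2.23) and in the HepG2-labelled line (-1.84), at levels of 3.66 TPM live and 0.779 TPM fixed in HCT-116 and of 1.40 and 0.390 TPM in the other line. Of the destruction complex and its regulators, 1 of 13 was called higher in HCT-116 and 2 of 14 in HepG2-labelled cells, and 0 lower in either, though in HCT-116 1 was lower with cells rescaled and in paired cells, and 2 without ribosomal RNA. USP34, an enzyme that takes ubiquitin off axin, rose in fixed cells of both, from 2.03 to 5.79 TPM and from 2.51 to 6.11 TPM, and its log2 ratios of 1.51 and 1.28 stayed between 1.05 and 1.33 under both scalings. CSNK1A1, the casein kinase that first marks beta-catenin, was the highest of that list, at 114.5 and 129.7 TPM in HCT-116 (live, fixed) and 93.04 and 106.8 TPM in the others.

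Of 18 MYC target genes, 2 were called lower and 0 higher in fixed HCT-116 cells (median 0.28, all genes 0.11), beside 10.2% of all genes called lower. Of 17 in HepG2-labelled cells, 1 was lower and 0 higher (median 0.13, all genes -0.01), beside 15.3% of all genes called lower. Under either scaling 3 were lower in HCT-116 and 2 in HepG2-labelled cells. RRS1, a ribosome assembly factor, was called in both lines, at 10.4 against 36.9 TPM (log2 ratio -1.83) and 5.87 against 20.7 TPM (-1.82), fixed against live. NPM1, a nucleolar chaperone and the highest of the list, stayed under 2-fold, at 1351 and 2078 TPM in HCT-116 and 882 and 1203 TPM in the HepG2-labelled line, live before fixed. Of the MAX network, 0 of 14 genes were called in HCT-116, and 1 was called higher and 1 lower in HepG2-labelled cells. MXD3, which pairs with MAX and opposes MYC, was the lower one, at 7.73 against 20.9 TPM. It was under 2-fold in paired cells (log2 ratio -0.92). Under either scaling 1 gene of the MAX network was lower in HCT-116, and 0 were higher and 1 lower in HepG2-labelled cells. For the nuclear partners of beta-catenin 0 of 14 were called in HCT-116 and 2 of 15, both higher, in HepG2-labelled cells, while under either scaling 2 were lower in HCT-116, and with cells rescaled by the median ratio 0 were called in HepG2-labelled cells. Of 16 other beta-catenin targets, 3 were higher (TNFRSF19, ZNRF3 and NOTUM) and 1 lower (TBX3) in fixed HCT-116 cells, or 1 higher under either scaling. In fixed HepG2-labelled cells 2 were higher (SOX9 and SLC12A2) and 2 lower (PROX1 and SMOC2), or 1 higher and 4 lower under either scaling. TNFRSF19, ZNRF3 and NOTUM in HCT-116, and PROX1 and SMOC2 in the HepG2-labelled line, had means under 1 TPM in both treatments. Of 7 Wnt ligands in each background, 0 were called in HCT-116 and 2 lower in HepG2-labelled cells (WNT8A and WNT9A). Both of these also had means under 1 TPM, live and fixed. Under either scaling 1 ligand was lower in HCT-116 and 3 in HepG2-labelled cells. Both genes of Wnt secretion stayed under 2-fold, but 1 of them was called lower in paired HepG2-labelled cells.

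The second comparison sets the HepG2-labelled line against HCT-116 within each treatment. Their tables were made separately, so a level set across them carries any difference between the tables. In live cells 5 of 7 members were called, all of them lower in the HepG2-labelled line, beside 17.2% of 20319 genes called lower and 29% called higher. TCF7L2 was 8.74-fold lower (log2 ratio -3.13), TCF7 8.35-fold (-3.06), MYC 4.24-fold (-2.08), RNF43 3.21-fold (-1.68) and CTNNB1 2.35-fold (-1.23). AXIN2 and NKD1 had log2 ratios of -0.59 and -0.34. ASCL2, listed for the HepG2-labelled line only, and SP5, listed for HCT-116 only, have no ratio here and are not among the 7. The median of all genes was 0.29, and 0.38 with cells rescaled and 0.13 without ribosomal RNA; under both, the same 5 members were called.

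In fixed cells 4 members were called lower and 1 higher, beside 17.4% of 18670 genes called lower and 24.4% higher. TCF7L2 was 9.48-fold lower (log2 ratio -3.24), MYC 7.44-fold (-2.90), TCF7 7.28-fold (-2.86) and CTNNB1 2.23-fold (-1.16). These 4 genes were called lower in live and in fixed cells alike. AXIN2 was 3.41-fold higher (1.77) in fixed HepG2-labelled cells, a call that was gone in cells paired on total reads (0.95). It was above 0 TPM in 19.3% of fixed HepG2-labelled and 8.70% of fixed HCT-116 cells. It thus passed the 10% filter through the group where it was higher. RNF43 had a log2 ratio of -0.21, which turned to 0.01 with cells rescaled by the median ratio, and NKD1 one of -0.60. Both comparisons of the lines use groups that also enter the comparisons of fixed with live cells, so their values are not independent.

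The lists were counted in live cells in the same way, and each count is to be read beside the 29% of all genes called higher and the 17.2% called lower. Of 16 other beta-catenin targets, 8 were lower and 4 higher in the HepG2-labelled line (median log2 ratio -0.93). CD44, a cell surface receptor, stood at 14.3 against 171.6 TPM, FOSL1, an AP-1 factor, at 0.964 against 84.3 TPM, and SOX9 at 0.235 against 6.85 TPM. BAMBI, a decoy receptor of the TGF-beta family, went the other way, at 118.3 against 1.30 TPM. Of 18 MYC targets, 7 were lower and 0 higher (median -0.78), and 6 and 9 were lower with cells rescaled and without ribosomal RNA. ODC1, which starts polyamine synthesis, stood at 19.3 against 175.3 TPM, LDHA, a lactate dehydrogenase subunit, at 343 against 966 TPM, NOP56 at 44.4 against 124.8 TPM and GNL3 at 49.4 against 135.9 TPM, the latter both nucleolar proteins. In fixed cells 5 of 17 MYC targets were lower and 0 higher.

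Of 7 Wnt antagonists, 4 were lower and 1 higher in live HepG2-labelled cells (median -1.39). DKK1, a secreted inhibitor that binds LRP receptors and is itself a target of beta-catenin, was the highest gene of its list, at 169.3 against 625 TPM in live and 150 against 941 TPM in fixed cells. NKD2, a relative of NKD1, stood at 0.569 against 2.47 TPM. Among 8 Wnt ligands, 5 were higher and 2 lower (median 1.03; 3 and 2 without ribosomal RNA), whereas in fixed cells 2 of 6 were higher and 3 lower (median -0.78). The 5 ligands called higher in live cells had means under 1 TPM in both lines, with WNT7B the highest at 0.858 against 0.295 TPM. In live cells WNT16 stood at 0.125 against 9.65 TPM and WNT10B at 0.348 against 3.32 TPM. WLS, which carries Wnt proteins to the cell surface, stood at 3.41 against 18.4 TPM.

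Receptors split, with 3 of 15 higher and 4 lower; FZD5, a Frizzled, was at 1.58 against 0.639 TPM and DVL1 at 0.628 against 2.93 TPM, while ROR2, a receptor tyrosine kinase for Wnt, was at 5.76 TPM in HCT-116 and above 0 in 1 of 68 live HepG2-labelled cells. Of 14 genes of the destruction complex, 2 were higher and 3 lower, with AXIN1, the scaffold related to AXIN2, at 2.78 against 1.07 TPM and CSNK1E at 1.41 against 4.67 TPM. Of 15 nuclear partners of beta-catenin, 7 were higher and 1 lower (median 0.89, all genes 0.29), or 4 and 1 without ribosomal RNA. TLE1, a corepressor of TCF factors, stood at 5.94 against 1.51 TPM, and the acetyltransferases EP300 and CREBBP at 2.18 against 0.938 and 4.12 against 1.88 TPM; CHD8, a remodeller that holds beta-catenin back, stood at 3.75 against 1.70 TPM. CREBBP and CHD8 came under 2-fold without ribosomal RNA, at 0.99 and 0.97 on the log2 scale, and CREBBP in paired cells, at 0.83. Of 2 R-spondin axis genes in the background, 0 were called, and ZNRF3, the partner of RNF43, was at 0.774 against 0.467 TPM. Of 14 MAX network genes, 2 were higher and 3 lower; MXD1 was at 3.43 against 0.984 TPM and MXI1 at 1.19 against 5.49 TPM.

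**Figure D4:**
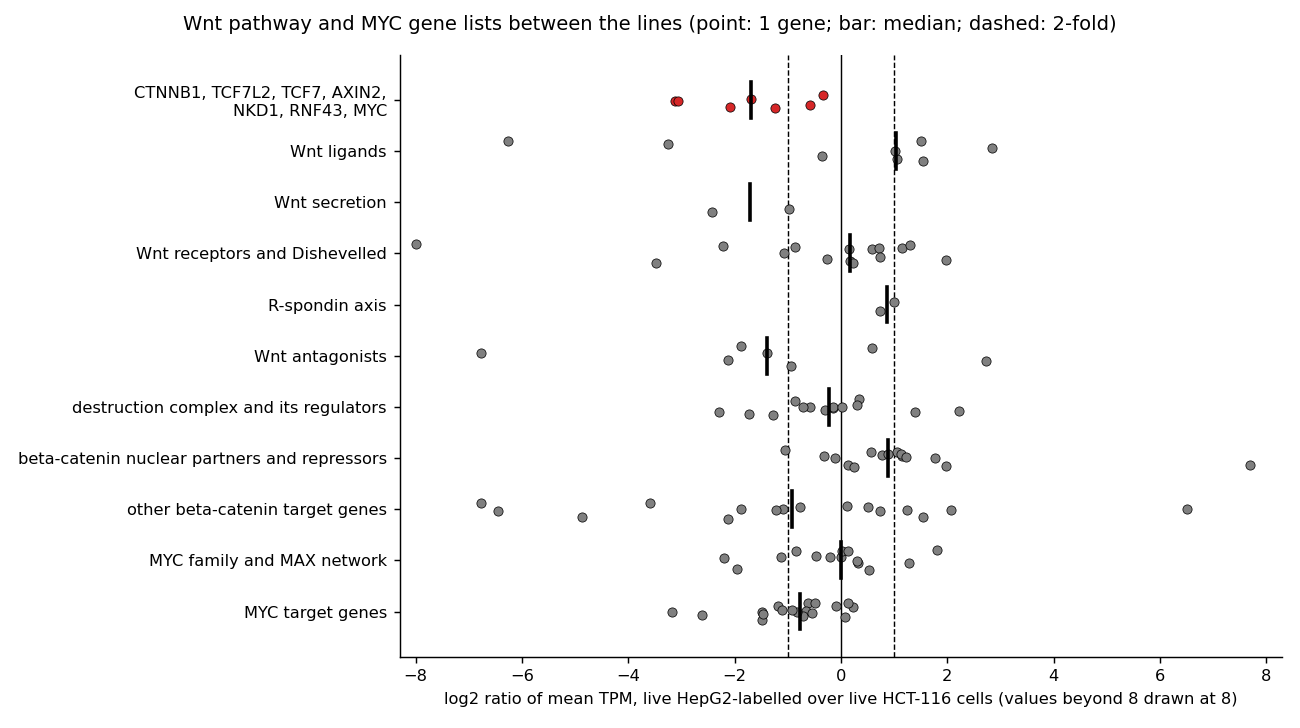
Log2 ratio of mean TPM of live HepG2-labelled over live HCT-116 cells for the 7 members in both tables (top row) and for the genes of each list in the background; a point is 1 gene, the bar the median and the dashed lines 2-fold. The members lie left of 0, MYC targets mostly so, and the nuclear partners of beta-catenin mostly to the right.

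Within a group the members hardly moved together from cell to cell. Spearman correlations between members present in at least 50% of the cells ran from -0.27 (CTNNB1 with RNF43, 68 live HepG2-labelled cells) to 0.23 (CTNNB1 with TCF7, 92 fixed HCT-116 cells). CTNNB1 and MYC correlated at 0.19 over 91 live HCT-116 and at 0.19 over 68 live HepG2-labelled cells, and at -0.21 and -0.03 in the fixed cells. Cells of a group share library preparation and differ in depth, and the level of CTNNB1 itself correlated at 0.39 with the number of genes detected in live HepG2-labelled cells, so these are descriptions only. No cell of any group held more than 3 of its 5 feedback and other target genes above 1 TPM (AXIN2, NKD1, RNF43 and TCF7, with SP5 or ASCL2). In HCT-116, 20 of 91 live and 38 of 92 fixed cells held none of them, and in the HepG2-labelled line, where ASCL2 takes the place of SP5, 24 of 68 live and 18 of 83 fixed cells.

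The genes most like each member over the cells of 1 group were taken by the highest Spearman correlation. For MYC these were RRP12, a ribosome assembly factor (0.55), SERBP1 (0.48) and AIMP2 (0.48) over 91 live HCT-116 cells, among 11190 genes present in at least 50% of them. Over 68 live HepG2-labelled cells, among 13420 genes, they were RNASET2 (0.51), RNF13 (0.49) and TPBG (0.49). For CTNNB1 they were MALSU1 (0.47), SCARB2 (0.44) and LMNA (0.43) in HCT-116, and FIBP (0.63), DSTN (0.62) and DCAF13 (0.62) in the other line. For TCF7L2 they were UTRN (0.50), TADA3 (0.44) and CPOX (0.40) in HCT-116, and for TCF7 ORC1, which takes part in the start of DNA replication (0.48), FANCB (0.45) and SLF1 (0.43). In the other line they were MIR614 (0.47), NARS2 (0.46) and GOLPH3 (0.45) for TCF7L2. For TCF7 they were LUZP2 (0.48), LOC107985993 (0.48) and VPS13B (0.46) there. No gene was among the first 3 of the same member in both lines for CTNNB1, MYC, TCF7L2 or TCF7. Each is the highest of many correlations, and whether unrelated genes would reach such values was not tested.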

How the data were processed

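Single cells of HCT-116 and of the HepG2-labelled line, live or methanol-fixed, were profiled with Smart-seq2. The deposited gene tables hold TPM per cell, which the authors made with kallisto (version 0.46.0 in the submitters' processing notes, which also name FastQC and GRCh38) and tximport. The deposited transcript tables hold CPM by the authors, not divided by transcript length, and gave the total reads per cell to the nearest 0.1 M. Whole reads were not recovered from them, and their transcripts matched a gene for 61.7% and 61.8% of rows, so reads are given only for genes with at least 90% of detected cells matched.

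Columns name a line and a treatment but not a labelled cell, so they were mapped to groups; 0 columns stayed unmapped. Levels are mean TPM with the SD over cells. Groups were compared by the log2 ratio of mean TPM, called at 2-fold or more, over genes above 0 TPM in at least 10% of cells compared. No test was run, as each group is 1 sample. No doublet caller or further cell filter was used. Alternatives were the log scale with a pseudocount of 1 or 0.1, medians, both rescalings, no filter, a 1.5-fold limit, cells paired on total reads, and leaving out equal, similar or highest cells, the last chosen after seeing the data. The calls were tried on simulated data, fixed against live, with 4-fold changes among 11190 genes (HCT-116) and 13420 genes (HepG2-labelled). They found 100% of higher and 100% of lower genes in HCT-116, and 99% and 98% in the HepG2-labelled line. These gene numbers are those of the genes found widely enough in live cells to enter the correlations. AXIN2 in both lines, and RNF43 and SP5 in HCT-116, were found in too few live cells for that. The simulation therefore does not show how well calls of such genes are recovered.

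The members, lists and rules were chosen with earlier results of these data known. Named genes were all members, the most abundant gene of each list, those called alike in fixed cells of both lines, and up to 4 called between lines per list with a mean of at least 1 TPM. Genes named beside a count of 5 or fewer, and ROR2, FZD5, DVL1 or ZNRF3 where no rule took them, were chosen after their values were seen. Tables were computed in Python 3.11.15 with pandas 2.3.3 and numpy 2.4.6, intervals with scipy 1.17.1 and plots with matplotlib 3.10.9.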

Additional observations from a re-analysis of the deposited data

Results flagged for a closer look

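AXIN2 and RNF43 had opposite directions in the 2 lines between fixed and live cells, and the difference between the lines was not tested, since each group is 1 sample. The log2 ratio of mean TPM of AXIN2 was -1.70 in HCT-116 and 0.66 in the HepG2-labelled line. That of RNF43 was -0.61 in HCT-116 and 0.86 in the HepG2-labelled line, and only AXIN2 in HCT-116 passed 2-fold.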

How the results depend on the processing

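Of 295 values of single members under the alternatives, 273 kept their direction and side of the limit or moved within it. Another 14 passed the limit of their setting and 8 came under it. Where a median was 0, as for AXIN2 in every group, medians gave no ratio. Such cases are not among the 295, so a call lost in that way is not counted. The 1.5-fold limit and the dropped filter leave each ratio as it was. Under these settings a call could change only through the limit or the filter, so the 295 values include ratios that could not move. Between fixed and live HCT-116 cells the 1 called member became 0 on the log2 scale with a pseudocount of 1 and also 0 with 0.1; with a pseudocount of 1 the means of AXIN2 (0.28 in live HCT-116, 0.25 in fixed HepG2-labelled cells) and of RNF43 (0.96 in live HCT-116) are too low for a 2-fold difference, so the loss of their calls there says nothing. It became 2 over all listed genes (SP5 and AXIN2) and 2 at 1.5-fold (AXIN2 and RNF43); medians gave 1, TCF7 (-1.28) in place of AXIN2. Between fixed and live HepG2-labelled cells the count of 0 became 2 with medians (RNF43 and TCF7), 3 at 1.5-fold (AXIN2, RNF43 and MYC) and 1 in paired cells (TCF7). Between the lines, the 5 called members became 3 in fixed cells on the log2 scale with a pseudocount of 1 (CTNNB1, TCF7L2 and MYC), and ranged from 4 to 6 in live cells. Members found in at least 50% of cells fell from 7 to 3 in live and from 6 to 3 in fixed HepG2-labelled cells at TPM above 1 in place of above 0. The cause of these shifts was not tested. The paper states that live and fixed cells came from the same culture. No paired analysis was possible, because each column is a different cell and the labels name no culture, and no test was run. NKD1 and SP5 rest on few reads and AXIN2 on few cells. Treatment, storage and library batch cannot be told apart.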
